A study of Mus musculus with 28 samples.

Results

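Amino acid catabolism is described here in mouse liver through 41 genes, chosen by symbol as enzymes of amino acid breakdown and a kinase that holds 1 of those steps back. All 41 were found among the 23393 symbols that both deposited tables hold, and all 41 were among the 12607 genes with enough reads to be tested. By amino acid they fall into 7 aromatic genes, 11 branched-chain genes, 6 sulphur genes, 4 histidine genes, 6 glycine and serine genes, 3 proline genes, 1 lysine gene and 3 general transaminases. The liver RNA came from 129svj mice aged 11 to 13 months, with 7 animals in each of 4 groups. SIRT6 heterozygotes (HZ) given the compound WY-14643 (WY) at 50 mg/kg by mouth are called HZ WY, and wild-type mice (WT) given the same dose WT WY. HZ vehicle and WT vehicle mice received only the carrier, 0.5% carboxymethylcellulose, and all livers were taken 12 h after dosing. Neither the construction of the SIRT6 allele nor the animals' sex is stated in the labels.

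Liver is the main site where surplus amino acids are broken down. Transaminases and dehydratases take off the nitrogen, dedicated enzymes cut the carbon skeletons into intermediates of the citric acid cycle, glucose or ketone bodies, and the nitrogen leaves as urea. Branched-chain amino acids are committed to breakdown by the branched-chain ketoacid dehydrogenase complex in mitochondria, which the kinase encoded by Bckdk inhibits. WY-14643 activates PPARα, a nuclear receptor that raises fatty acid oxidation genes in rodent liver, and SIRT6 is a nuclear deacetylase that uses NAD.

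Each library held 15795201 to 20020078 reads counted on genes. Sirt6 itself averaged 1.61 ± 0.36 CPM (a gene's reads relative to all reads on genes, scaled between libraries by TMM) in HZ WY mice, against 3.31 ± 0.684 CPM in WT WY mice, and 1.21 ± 0.18 CPM in HZ vehicle mice, against 2.38 ± 0.615 CPM in WT vehicle mice (SD, n = 7). It was lower in HZ under both treatments (edgeR adjusted p = 0.00721 under WY and 0.00696 under vehicle). Textbook PPARα target genes rose with WY in 11 of 12 cases in HZ and in 10 of 12 in WT. Of 9 hepatocyte markers, 7 fell with WY in each genotype, and their summed level was 71200 to 108000 CPM in HZ WY, 89800 to 102000 in WT WY, 111000 to 143000 in HZ vehicle and 114000 to 144000 in WT vehicle mice. Summed Kupffer cell and macrophage markers had medians of 375, 309, 379 and 369 CPM in the groups in the same order. Their ranges were 274 to 724, 240 to 350, 329 to 683 and 330 to 458 CPM. For HZ against WT the median log2 fold change of these 9 markers was 0.65 under WY and 0.39 under vehicle, with 0 passing. Endothelial markers had medians of 196, 187, 202 and 206 CPM. Stellate cell markers had 91.6, 85.1, 103 and 86.2 CPM, and cholangiocyte markers 33.4, 32.5, 32.8 and 33.3 CPM. The highest libraries had 142, 97.7, 143 and 133 CPM for stellate and 97.1, 37.5, 68.7 and 37.6 CPM for cholangiocyte markers. Kidney tubule markers summed to at most 0.21 CPM in any library. The share of reads on no gene was 7.11 ± 0.469% in HZ WY against 8.43 ± 0.418% in HZ vehicle mice, and 6.75 ± 0.321% in WT WY against 8.45 ± 0.114% in WT vehicle mice (SD, n = 7). A clock score, the mean log2 CPM of 7 genes such as Dbp and Per1 less that of Arntl, Npas2 and Clock, had a median of 1.12 in HZ WY, 3.17 in WT WY, 3.38 in HZ vehicle and 2.40 in WT vehicle mice. On a principal component holding 9.77% of the variance, 5 HZ libraries stood apart (animals 14, 15 and 21 under WY, 30 and 38 under vehicle), with neutrophil and monocyte markers that summed to 64.0 to 407 CPM. WY animals carry the numbers 2 to 25 and vehicle animals 29 to 39 and 71 to 78, and the deposited tables are separate, so treatment and anything tied to those series cannot be told apart.

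WY was followed by lower levels of most of the 41 genes in both genotypes. In HZ mice 27 fell, 5 rose and 9 did not pass the test (edgeR adjusted p below 0.05 over all tested genes), where 26.4% of all genes fell and 29.3% rose (55.7% together). In WT mice 25 fell, 4 rose and 12 did not pass, where 26.7% of all genes fell and 27.4% rose (54.1% together). The same shares of all genes stand beside the counts by amino acid further on. The median log2 fold change of the 41 genes was -0.35 in HZ and -0.39 in WT, beside 0.01 and -0.02 over all tested genes. The pair of comparisons uses different animals throughout: 22 genes fell in both, 3 rose in both (Bckdhb, Mccc2 and Bckdk), 11 passed in 1 genotype only and 5 in neither, and no gene went opposite ways. The log2 fold change had the same sign in 40 of 41 genes, Qdpr being the exception with values near 0. How many of all tested genes matched between the genotypes in call or in sign was not counted. Such a match is therefore not shown to be particular to the 41 genes. A test of the difference between the genotypes is given further on, and none of the 41 genes passed it.

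Together the 41 genes took up 1.25 to 1.67% of the reads on genes in HZ WY libraries, against 1.82 to 2.21% in HZ vehicle libraries. In WT mice the share was 1.43 to 1.68% under WY, against 1.78 to 2.16% under vehicle. The ranges did not overlap in either genotype. The share is of raw reads without TMM scaling, and the genes with most reads weigh most in it. These were Mat1a, Tat, Hpd, Gnmt and Oat, of which Tat, Mat1a and Oat did not pass the test in WT. Because whole liver was sequenced, fewer hepatocytes and less RNA of these genes per hepatocyte cannot be told apart, and the part of the lower hepatocyte marker sum in these values was not tested.

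**Figure D1:**
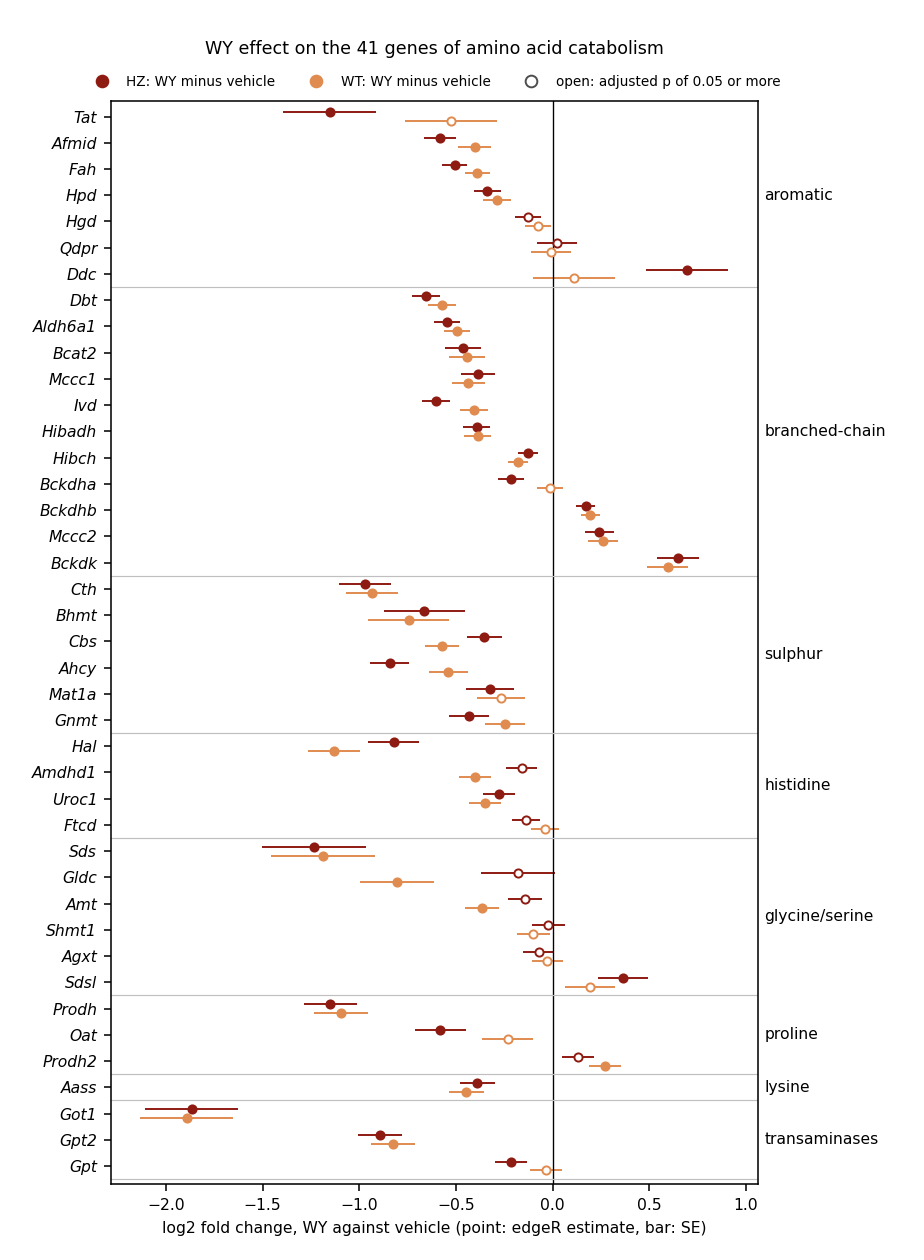
Log2 fold change of WY against vehicle for each of the 41 genes (x axis; point, edgeR estimate; bar, SE; 7 animals a group), grouped by amino acid, with HZ above WT in each row. Filled points passed the test, and most lie left of 0, with Got1 at -1.87 in HZ and -1.89 in WT at the far left and Bckdk, Mccc2 and Bckdhb right of 0 in both.

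Counted animal by animal, 10 genes in HZ had every WY animal below every vehicle animal, where 9.89% of all tested genes did, and 15 genes in WT did, where 12.1% of all genes did. All 7 WY animals were above all 7 vehicle animals for 0 genes in HZ (12.6% of all genes) and for 1 gene in WT, Bckdk (15.7% of all genes). Fah, Dbt, Ivd, Hal, Prodh and Gpt2 were separated downwards in both genotypes. The share of all tested genes separated in both was not counted.

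**Figure D2:**
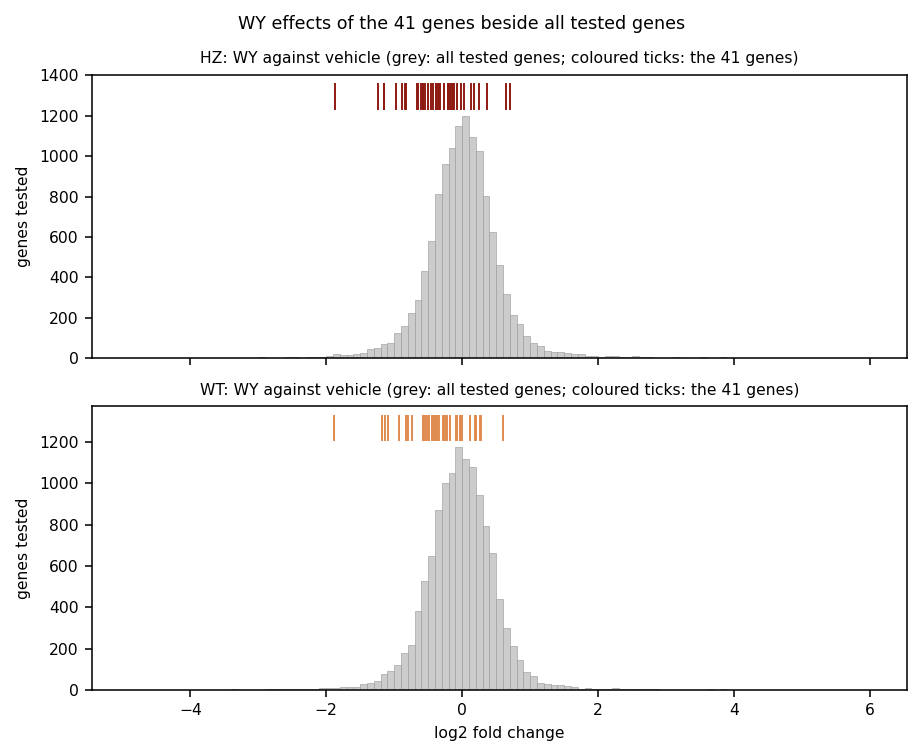
Number of tested genes (y axis) by log2 fold change of WY against vehicle (x axis, bins of 0.1), for HZ above and WT below. Ticks mark the 41 genes, most of which sit left of the peak of all genes, with medians of -0.35 in HZ and -0.39 in WT.

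Promoters of the genes were searched for motifs of factors known in liver metabolism. RefSeq windows on GRCm38.p6, from 250 bases before to 50 after a gene's start, were at hand for 35 of the 41 genes (39 windows). The direct repeat DR1, AGGTCA followed by any base and AGGTCA again, is the kind of element that PPARα binds with RXR, and it was searched on both strands with at most 2 mismatches. It occurred in 5 of 39 windows (12.8%), beside 3.86% of 32851 windows of all genes, those of Aass, Prodh2, Amt, Aldh6a1 and Bhmt, the last with 2 matches at 72 and 54 bases before the start. AGGTCA by itself, which every perfect repeat contains, was in 13 windows (33.3%) beside 16.3% of all, the glucocorticoid receptor motif AGAACA in 5 (12.8%) beside 19.0%, and the cyclic AMP element TGACGTCA in 0 beside 1.79%. Genes with a match to the repeat went both ways only in WT, where Prodh2 rose and Aass, Aldh6a1, Bhmt and Amt fell. In HZ Aass, Aldh6a1 and Bhmt fell, while Prodh2 and Amt did not pass (edgeR adjusted p = 0.186 and 0.178). A match is a run of letters and not a measured site. The windows of all genes were not limited to the genes tested here in liver. Shown here are the bases before the start for Got1, which fell most, and for 3 genes with a match to the repeat, all read 5′ to 3′ on the gene's strand from RefSeq, with AGGTCA and repeat matches in capitals.
Got1, chr19:43524606-43524855, minus strand: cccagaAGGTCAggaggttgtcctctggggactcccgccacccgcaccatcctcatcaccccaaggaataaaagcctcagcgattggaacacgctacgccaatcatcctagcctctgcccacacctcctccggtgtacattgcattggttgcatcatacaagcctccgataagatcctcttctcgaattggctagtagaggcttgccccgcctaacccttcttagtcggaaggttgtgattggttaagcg
Aass, chr6:23132987-23133236, minus strand: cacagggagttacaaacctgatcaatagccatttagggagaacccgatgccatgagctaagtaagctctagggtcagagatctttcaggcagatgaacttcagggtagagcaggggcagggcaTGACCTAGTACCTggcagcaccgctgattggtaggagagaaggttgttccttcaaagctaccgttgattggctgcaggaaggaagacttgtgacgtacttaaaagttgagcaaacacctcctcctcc
Prodh2, chr7:30493408-30493621, plus strand: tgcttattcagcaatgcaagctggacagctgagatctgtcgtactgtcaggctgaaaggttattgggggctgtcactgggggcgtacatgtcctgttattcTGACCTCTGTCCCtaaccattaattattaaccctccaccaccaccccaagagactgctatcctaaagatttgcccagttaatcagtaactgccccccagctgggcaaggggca
Amt, chr9:108296655-108296852, plus strand: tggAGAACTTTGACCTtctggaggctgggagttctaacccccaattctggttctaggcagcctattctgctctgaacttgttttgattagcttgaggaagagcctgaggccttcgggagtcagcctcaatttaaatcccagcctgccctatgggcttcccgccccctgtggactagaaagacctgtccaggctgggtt

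The general transaminases held the deepest fall. Levels from here on are the lowest, the median and the highest of the 7 animals of a group, in CPM. Got1, the cytosolic aspartate aminotransferase (chr19:43499752-43524605, minus strand, GRCm38), had 62.2, 87.0 and 128 CPM in HZ WY mice, against 264, 323 and 356 CPM in HZ vehicle mice. WT animals had 42.9, 49.3 and 101 CPM in WT WY mice, against 96.8, 245 and 353 CPM in WT vehicle mice. The HZ groups did not overlap, while in WT the lowest vehicle animal, number 76, lay just under the highest WY animal. WY changed it by -1.87 ± 0.24 in HZ (edgeR adjusted p = 3.3e-07) and -1.89 ± 0.24 in WT (edgeR adjusted p = 3.33e-07) on the log2 scale. Gpt2, the mitochondrial alanine aminotransferase, had 149.5, 208 and 242 CPM in HZ WY mice, against 306, 379.9 and 428 CPM in HZ vehicle mice, and 177, 203 and 251 CPM in WT WY mice, against 282, 386 and 438 CPM in WT vehicle mice. No WY animal reached the lowest vehicle animal of its genotype, and the log2 fold change was -0.89 ± 0.11 in HZ (edgeR adjusted p = 1.67e-07) and -0.83 ± 0.11 in WT (edgeR adjusted p = 6.43e-07). Gpt, the cytosolic alanine aminotransferase, moved less, with 189, 209 and 245 CPM in HZ WY mice, against 188, 256 and 272 CPM in HZ vehicle mice. Gpt had 193, 236 and 265 CPM in WT WY mice, against 210.2, 228 and 282 CPM in WT vehicle mice, and its groups overlapped in both genotypes. Its log2 fold change was -0.21 ± 0.08 in HZ (edgeR adjusted p = 0.0303) and -0.04 ± 0.08 in WT (edgeR adjusted p = 0.749). The HZ call was lost in a fit with the clock score as a covariate (-0.12, edgeR adjusted p = 0.359) and with the 5 outlying HZ libraries left out (-0.19, edgeR adjusted p = 0.138). The clock score itself differed between the HZ groups, with medians of 1.12 under WY and 3.38 under vehicle. With that covariate, calls over all genes in HZ were 5132 in place of 7024, so losses in that fit were not limited to these genes. No filter (-0.21, edgeR adjusted p = 0.0551) and only the groups compared (-0.19, edgeR adjusted p = 0.067) lost the HZ call as well. It was lost too without any 1 of HZ WY animals 2, 15 and 21 or HZ vehicle animals 35, 36, 39 and 71 (edgeR adjusted p of 0.0503 to 0.069).

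**Figure D3:**
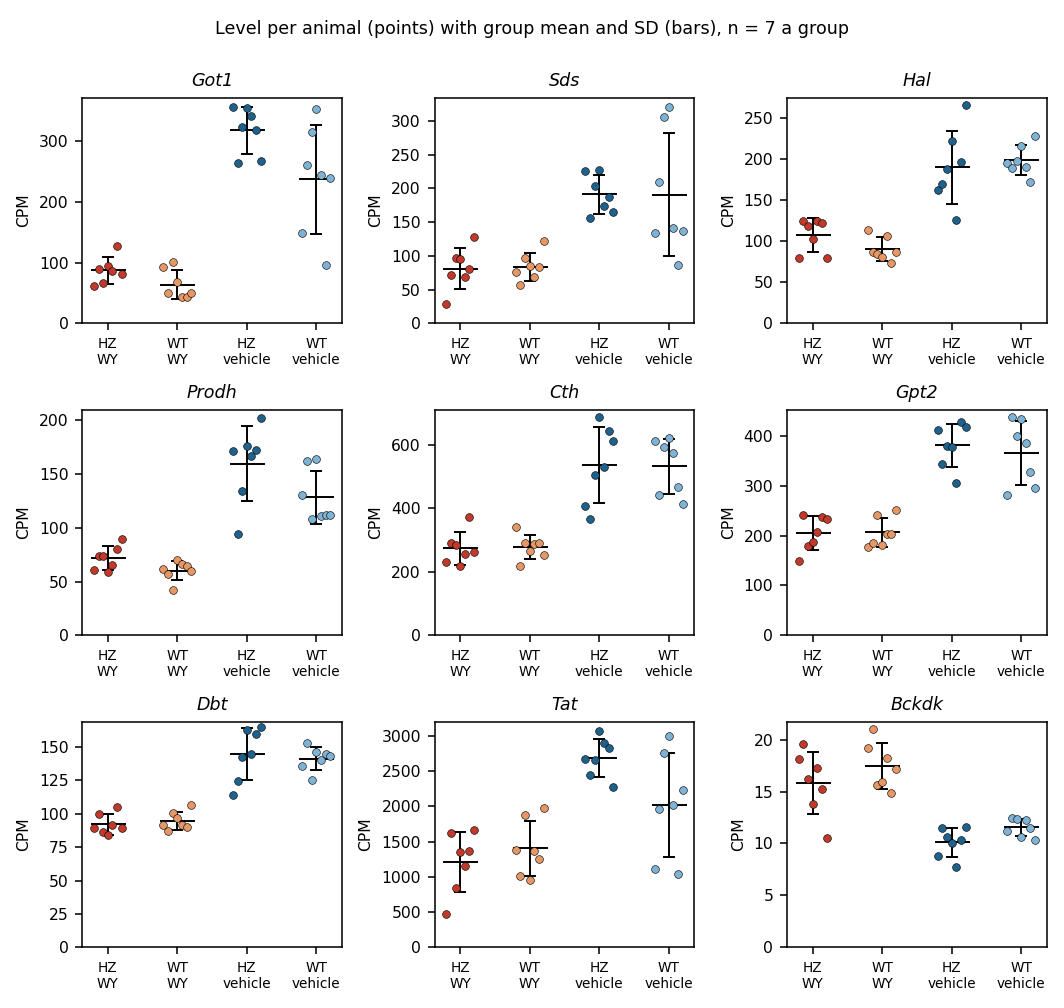
CPM of 9 of the genes in each animal (points) with the group mean and SD (bars), from left to right HZ WY, WT WY, HZ vehicle and WT vehicle. In 8 panels the WY animals sit mostly below the vehicle animals of the same genotype, and in the Bckdk panel they sit above.

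Among glycine and serine genes 1 fell and 1 rose in HZ, and 3 fell and 0 rose in WT, of 6. Sds, serine dehydratase, which turns serine into pyruvate for glucose synthesis, had 28.6, 80.4 and 128 CPM in HZ WY mice, against 156, 187 and 227 CPM in HZ vehicle mice. In WT animals Sds had 56.5, 82.9 and 122 CPM in WT WY mice, against 86.8, 142 and 320.2 CPM in WT vehicle mice. HZ groups were apart, and WT groups overlapped through a low vehicle animal, number 76. On the log2 scale Sds changed by -1.23 ± 0.27 in HZ (edgeR adjusted p = 0.000375) and -1.19 ± 0.27 in WT (edgeR adjusted p = 0.000588), and 29.6% of its exon bases also belong to other annotated genes. Its neighbour Sdsl, a serine dehydratase-like gene next to it on the opposite strand of chromosome 5 (chr5:120458186-120472810), did not follow: it had 8.27, 9.75 and 13.9 CPM in HZ WY mice, against 6.06, 7.88 and 10.3 CPM in HZ vehicle mice, with overlap. In WT Sdsl had 8.99, 11.7 and 12.9 CPM in WT WY mice, against 7.86, 9.97 and 13.1 CPM in WT vehicle mice. Its log2 fold change was 0.36 ± 0.13 in HZ (edgeR adjusted p = 0.019) and 0.19 ± 0.13 in WT (edgeR adjusted p = 0.208), and with the 5 outlying HZ libraries left out it was 0.14 in HZ (edgeR adjusted p = 0.419). The HZ call was also lost without HZ WY animal 15 or HZ vehicle animal 38 or 39 (edgeR adjusted p = 0.0642, 0.0505 and 0.0514).

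Gldc and Amt encode parts of the glycine cleavage system in mitochondria, the P protein and the T protein. Gldc had 117, 159 and 215 CPM in HZ WY mice, against 121, 189 and 348 CPM in HZ vehicle mice, the highest of them animal 71. In WT it had 103, 124 and 174 CPM in WT WY mice, against 174, 241 and 302 CPM in WT vehicle mice, and the groups touched only at their edges. For Gldc the log2 fold change was -0.18 ± 0.19 in HZ (edgeR adjusted p = 0.448) and -0.80 ± 0.19 in WT (edgeR adjusted p = 0.000914). Amt, with 38.9, 43.5 and 53.7 CPM in HZ WY mice, against 40.1, 51.2 and 61.5 CPM in HZ vehicle mice, overlapped widely in HZ. It had 37.2, 40.6 and 50.3 CPM in WT WY mice, against 46.9, 54.8 and 57.4 CPM in WT vehicle mice, and only the WY animal with the highest value reached into the vehicle range. Its log2 fold change was -0.14 ± 0.09 in HZ (edgeR adjusted p = 0.178) and -0.36 ± 0.09 in WT (edgeR adjusted p = 0.00107). With the clock score as a covariate both genes passed in HZ as well, Gldc at -0.69 (edgeR adjusted p = 0.000383) and Amt at -0.36 (edgeR adjusted p = 0.00203). Agxt, alanine-glyoxylate aminotransferase, and Shmt1, the cytosolic serine hydroxymethyltransferase, did not pass in either genotype, with log2 fold changes of -0.07 ± 0.08 and -0.02 ± 0.09 in HZ and -0.03 ± 0.08 and -0.10 ± 0.09 in WT.

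The histidine pathway runs in order through Hal, Uroc1, Amdhd1 and Ftcd, and its first step fell most. In HZ 2 of the 4 genes fell and in WT 3, with none rising. Hal, histidine ammonia-lyase, had 79.3, 119 and 125 CPM in HZ WY mice, against 126, 188 and 266 CPM in HZ vehicle mice. The WT animals had 73.8, 87.5 and 114 CPM in WT WY mice, against 173, 195 and 228 CPM in WT vehicle mice. WY animals lay below all vehicle animals in both genotypes, closest in HZ, where 1 vehicle animal, number 38, was nearly level with the highest WY animals. Hal had a log2 fold change of -0.82 ± 0.13 in HZ (edgeR adjusted p = 6.33e-06) and -1.13 ± 0.13 in WT (edgeR adjusted p = 5.79e-08). Uroc1, urocanase, had 299.5, 323 and 391 CPM in HZ WY mice, against 344, 378 and 545 CPM in HZ vehicle mice, and 273, 318 and 365 CPM in WT WY mice, against 371, 422 and 453 CPM in WT vehicle mice, overlapping in HZ and apart in WT. Its log2 fold change was -0.28 ± 0.08 in HZ (edgeR adjusted p = 0.00586) and -0.35 ± 0.08 in WT (edgeR adjusted p = 0.000766). Amdhd1, the imidazolonepropionase that lies beside Hal on chromosome 10 on the opposite strand, had 122, 148 and 165 CPM in HZ WY mice, against 131, 161 and 189 CPM in HZ vehicle mice, and 122, 143 and 159 CPM in WT WY mice, against 159, 188 and 202 CPM in WT vehicle mice. The groups overlapped in both genotypes, in WT by less than 1 CPM, and the log2 fold change was -0.16 ± 0.08 in HZ (edgeR adjusted p = 0.0966) and -0.40 ± 0.08 in WT (edgeR adjusted p = 0.000137). It passed in HZ without HZ vehicle animal 38 (-0.21, edgeR adjusted p = 0.0245). Ftcd, the formiminotransferase that ends the pathway, had 337, 378 and 429 CPM in HZ WY mice, against 343, 431 and 474 CPM in HZ vehicle mice, and 369.5, 417 and 465 CPM in WT WY mice, against 404, 431 and 463 CPM in WT vehicle mice. Its groups overlapped and it did not pass in either genotype, at -0.14 ± 0.07 in HZ and -0.04 ± 0.07 in WT. It passed in HZ without HZ vehicle animal 30 (-0.18, edgeR adjusted p = 0.0343).

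Proline genes split. Prodh, the mitochondrial proline dehydrogenase, had 59.0, 73.9 and 89.6 CPM in HZ WY mice, against 94.4, 172 and 202 CPM in HZ vehicle mice. In WT Prodh had 42.5, 61.8 and 69.6 CPM in WT WY mice, against 108, 112 and 164 CPM in WT vehicle mice. The WY and vehicle animals were apart in both genotypes, and the log2 fold change was -1.15 ± 0.14 in HZ (edgeR adjusted p = 8.08e-08) and -1.10 ± 0.14 in WT (edgeR adjusted p = 2.11e-07). Prodh2, which oxidises hydroxyproline, had 138, 158 and 195 CPM in HZ WY mice, against 132, 142 and 178 CPM in HZ vehicle mice, and 167, 185 and 223 CPM in WT WY mice, against 146, 157 and 184 CPM in WT vehicle mice. Its groups overlapped, and its log2 fold change was 0.13 ± 0.08 in HZ (edgeR adjusted p = 0.186) and 0.27 ± 0.08 in WT (edgeR adjusted p = 0.007). Oat, ornithine aminotransferase, had 581, 834 and 1134 CPM in HZ WY mice, against 1039, 1226 and 1474 CPM in HZ vehicle mice, with 2 WY animals above the lowest vehicle animal. In WT Oat had 728, 889.8 and 1176 CPM in WT WY mice, against 769, 1135 and 1223 CPM in WT vehicle mice and overlapped widely. For Oat the log2 fold change was -0.58 ± 0.13 in HZ (edgeR adjusted p = 0.000463) and -0.23 ± 0.13 in WT (edgeR adjusted p = 0.14).

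Sulphur amino acid genes all had negative log2 fold changes, and 6 of 6 fell in HZ and 5 of 6 in WT. Cth, cystathionine gamma-lyase, which makes cysteine, had 217, 263 and 374 CPM in HZ WY mice, against 368, 530.4 and 688 CPM in HZ vehicle mice, overlapping by 1 animal. For WT it was 219, 286 and 340.3 CPM in WT WY mice, against 413, 574 and 620.2 CPM in WT vehicle mice, with the groups apart. Cth had a log2 fold change of -0.97 ± 0.13 in HZ (edgeR adjusted p = 6.29e-07) and -0.93 ± 0.13 in WT (edgeR adjusted p = 1.24e-06). Cbs, cystathionine beta-synthase, which feeds it, had 318, 402 and 469 CPM in HZ WY mice, against 405, 481 and 589 CPM in HZ vehicle mice, and 277, 333 and 389 CPM in WT WY mice, against 438, 491 and 556 CPM in WT vehicle mice. WT groups were apart and HZ groups overlapped, with -0.35 ± 0.09 in HZ (edgeR adjusted p = 0.00128) and -0.57 ± 0.09 in WT (edgeR adjusted p = 3.93e-06). Ahcy, which hydrolyses S-adenosylhomocysteine, had 19.1, 21.6 and 25.2 CPM in HZ WY mice, against 31.9, 39.3 and 44.8 CPM in HZ vehicle mice, and 21.9, 25.6 and 30.0 CPM in WT WY mice, against 28, 36.6 and 47.3 CPM in WT vehicle mice. The HZ groups were apart and the WT groups overlapped, with -0.84 ± 0.10 in HZ (edgeR adjusted p = 4.95e-08) and -0.54 ± 0.10 in WT (edgeR adjusted p = 4.45e-05). Its level is uncertain, since the GENCODE M21 genes Gm4737 and Gm9826 match its transcript at 99.7% over 2083 bases and 99.2% over 1299 bases, and reads placed in several positions stood in a row of their own and not on genes.

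Bhmt, which remethylates homocysteine with betaine, was the most variable of the sulphur genes. It had 308, 459 and 713 CPM in HZ WY mice, against 451, 715 and 1242 CPM in HZ vehicle mice, and 375, 429 and 642 CPM in WT WY mice, against 436, 784 and 1012 CPM in WT vehicle mice. The groups overlapped in both genotypes, and the log2 fold change was -0.66 ± 0.21 in HZ (edgeR adjusted p = 0.00897) and -0.74 ± 0.21 in WT (edgeR adjusted p = 0.00398). A copy of Bhmt, Gm5096, matches its transcript at 99.4% over 1869 bases, so its level is uncertain too. Gnmt, the glycine N-methyltransferase that uses up S-adenosylmethionine, had 1006, 1138 and 1440 CPM in HZ WY mice, against 1154, 1506 and 2081 CPM in HZ vehicle mice, and 1115, 1441 and 1617 CPM in WT WY mice, against 1438, 1692 and 1863 CPM in WT vehicle mice. With overlap in both genotypes, its log2 fold change was -0.43 ± 0.10 in HZ (edgeR adjusted p = 0.000866) and -0.25 ± 0.10 in WT (edgeR adjusted p = 0.0487). The WT call was lost in 5 of the 7 other settings (largest edgeR adjusted p of 0.202). So it was without any 1 of WT WY animals 6, 10, 11, 20, 24 and 25 or WT vehicle animals 29, 32, 37, 74 and 76 (edgeR adjusted p of 0.0556 to 0.118). Mat1a, the liver S-adenosylmethionine synthetase, had negative values whose calls moved with the setting. It was called in HZ and not in WT, at -0.32 ± 0.12 in HZ (edgeR adjusted p = 0.0289) and -0.26 ± 0.12 in WT (edgeR adjusted p = 0.0725). With only the groups compared this turned round, at -0.30 in HZ (edgeR adjusted p = 0.0835) and -0.27 in WT (edgeR adjusted p = 0.0201). The HZ call was also lost with the clock score (-0.29, edgeR adjusted p = 0.12). It was lost as well without any 1 of HZ WY animals 2, 5 and 17 or HZ vehicle animals 30 and 71 (-0.30 to -0.25, edgeR adjusted p of 0.0555 to 0.088). Without WT vehicle animal 31 or 78 it passed in WT (-0.30, edgeR adjusted p = 0.0492 and 0.0479).

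Branched-chain genes gave the only rises shared by both genotypes. Of 11 genes 8 fell and 3 rose in HZ, and 7 fell and 3 rose in WT. Of all tested genes 26.4% fell and 29.3% rose in HZ, and 26.7% fell and 27.4% rose in WT. Bckdk, the kinase that inhibits the ketoacid dehydrogenase complex, had 10.5, 16.2 and 19.6 CPM in HZ WY mice, against 7.78, 10.4 and 11.6 CPM in HZ vehicle mice. In WT it had 14.9, 17.2 and 21.1 CPM in WT WY mice, against 10.3, 11.5 and 12.4 CPM in WT vehicle mice. The WT groups were apart, and in HZ only 1 WY animal, number 21, fell inside the vehicle range. The log2 fold change of Bckdk was 0.65 ± 0.11 in HZ (edgeR adjusted p = 8.65e-06) and 0.59 ± 0.11 in WT (edgeR adjusted p = 2.86e-05). Dbt, the E2 core subunit of that complex, had 83.8, 89.2 and 105 CPM in HZ WY mice, against 114, 145 and 165 CPM in HZ vehicle mice, and 87.3, 92.0 and 106 CPM in WT WY mice, against 126, 143 and 153 CPM in WT vehicle mice. No animals overlapped in either genotype, and the log2 fold change was -0.65 ± 0.07 in HZ (edgeR adjusted p = 1.19e-08) and -0.57 ± 0.07 in WT (edgeR adjusted p = 1.29e-07). Of the E1 subunits, Bckdhb rose a little, at 0.17 ± 0.05 in HZ (edgeR adjusted p = 0.00289) and 0.20 ± 0.05 in WT (edgeR adjusted p = 0.000859). Bckdha had 144, 164 and 179 CPM in HZ WY mice, against 166, 188 and 211 CPM in HZ vehicle mice, and 169.6, 186 and 202 CPM in WT WY mice, against 169, 183 and 216 CPM in WT vehicle mice, overlapping in both genotypes. It fell in HZ and did not pass in WT, at -0.21 ± 0.07 in HZ (edgeR adjusted p = 0.0072) and -0.01 ± 0.07 in WT (edgeR adjusted p = 0.877). Bckdha shares 61.7% of its exon bases with the gene B3gnt8 on the other strand, and its HZ call was lost with the clock score as a covariate (-0.18, edgeR adjusted p = 0.0811).

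Later steps of branched-chain breakdown mostly fell. Ivd, isovaleryl-CoA dehydrogenase of the leucine branch, had 87.7, 108 and 114 CPM in HZ WY mice, against 130.5, 160.1 and 176 CPM in HZ vehicle mice, and 94.0, 111 and 119.8 CPM in WT WY mice, against 136, 139 and 164 CPM in WT vehicle mice. Its groups were apart in both genotypes, with -0.60 ± 0.07 in HZ (edgeR adjusted p = 5.19e-08) and -0.41 ± 0.07 in WT (edgeR adjusted p = 2.49e-05). Aldh6a1, methylmalonate semialdehyde dehydrogenase of the valine branch, had 480.1, 508 and 626 CPM in HZ WY mice, against 625, 744 and 881 CPM in HZ vehicle mice, and 509, 558 and 593 CPM in WT WY mice, against 729, 784 and 839 CPM in WT vehicle mice. Only the HZ WY animal numbered 18 reached the vehicle range, by under 2 CPM, and the log2 fold change was -0.55 ± 0.07 in HZ (edgeR adjusted p = 8.74e-08) and -0.49 ± 0.07 in WT (edgeR adjusted p = 5.43e-07). The gene Bbof1 on the other strand shares 18.6% of the exon bases of Aldh6a1. The subunits of the leucine enzyme methylcrotonyl-CoA carboxylase parted. Mccc1 fell, at -0.39 ± 0.09 in HZ (edgeR adjusted p = 0.000404) and -0.44 ± 0.09 in WT (edgeR adjusted p = 0.000108). Mccc2 rose, at 0.24 ± 0.08 in HZ (edgeR adjusted p = 0.00778) and 0.26 ± 0.08 in WT (edgeR adjusted p = 0.0045). Bcat2, the mitochondrial branched-chain aminotransferase that muscle uses more than liver, fell by similar amounts, at -0.47 ± 0.09 in HZ and -0.45 ± 0.09 in WT, and an antisense gene shares 15.9% of its exon bases. The valine genes Hibadh and Hibch also fell, Hibadh at -0.39 ± 0.07 in HZ and -0.39 ± 0.07 in WT, and Hibch at -0.13 ± 0.05 in HZ and -0.18 ± 0.05 in WT. Hibch had 89.3, 93.3 and 102 CPM in HZ WY mice, against 92.9, 101 and 115 CPM in HZ vehicle mice, and 88.7, 102 and 108 CPM in WT WY mice, against 106, 111 and 119.9 CPM in WT vehicle mice. The groups overlapped in both genotypes, in WT by 1 animal. Its HZ call was lost without any 1 of HZ WY animals 5, 14, 15, 17 and 21 or HZ vehicle animals 35, 36 and 39 (-0.13 to -0.10, edgeR adjusted p of 0.0521 to 0.112), and with the 5 outlying HZ libraries left out (-0.15, edgeR adjusted p = 0.0575). In HZ the calls of Mccc2 and Hibch were lost with the clock score as a covariate (edgeR adjusted p = 0.163 and 0.119). Hibch was lost in HZ also with no filter (-0.12, edgeR adjusted p = 0.108) and with only the groups compared (-0.11, edgeR adjusted p = 0.12).

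**Figure D4:**
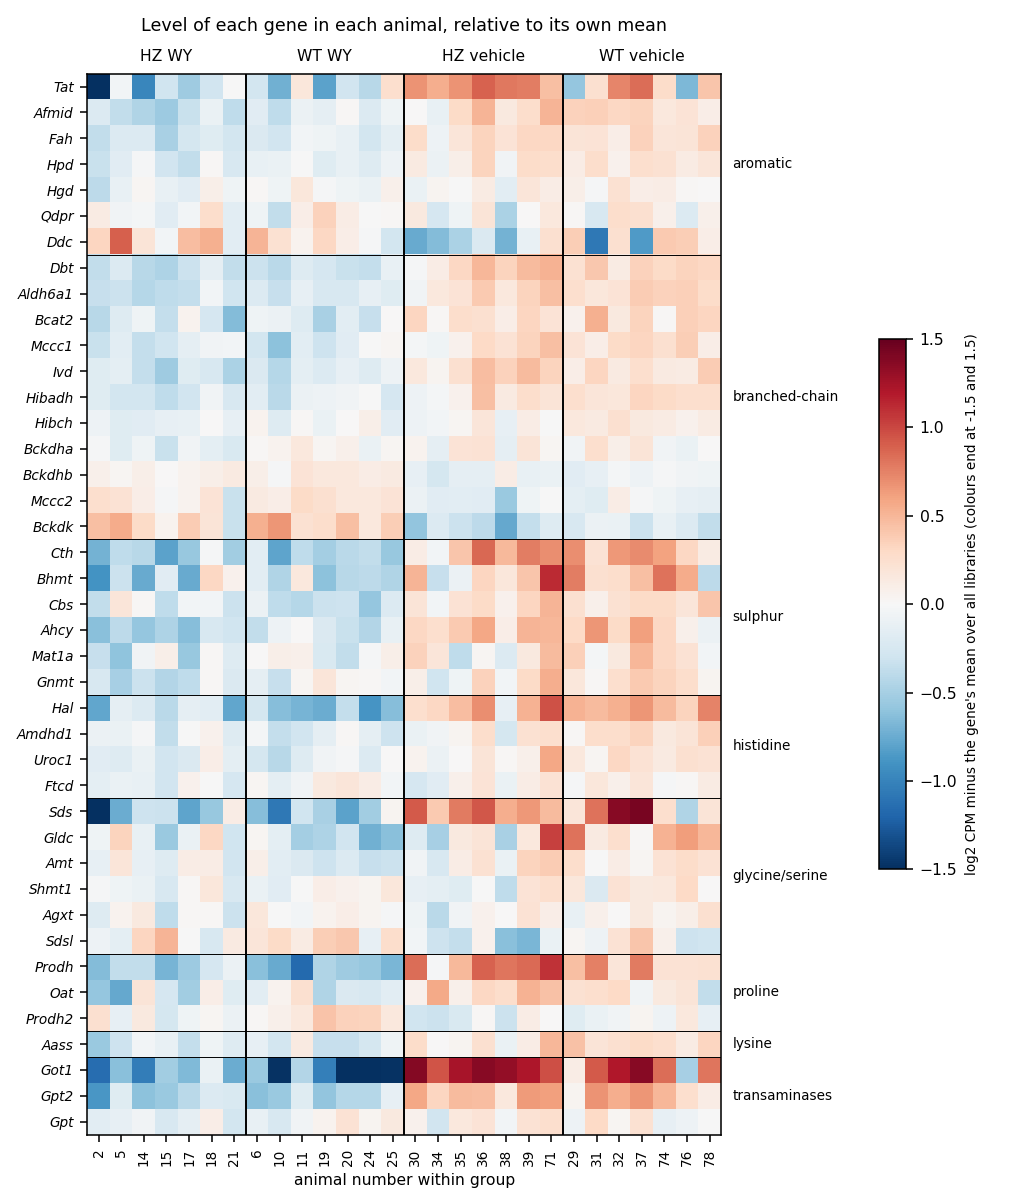
Log2 CPM of each gene in each animal less the gene's own mean over 28 libraries (colour), with genes in rows by amino acid and animals in columns, from left to right HZ WY, WT WY, HZ vehicle and WT vehicle. The WY columns are mostly blue (lower) and the vehicle columns mostly red (higher), apart from rows such as Bckdk, Mccc2, Prodh2 and Ddc, and single animals such as WT vehicle 76 for Got1, Sds and Tat.

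Aromatic amino acid genes fell in 4 of 7 cases and rose in 1 in HZ, and fell in 3 and rose in none in WT. Tat, tyrosine aminotransferase, the glucocorticoid-induced first step of tyrosine breakdown, had 471, 1355 and 1665 CPM in HZ WY mice, against 2280, 2668 and 3070 CPM in HZ vehicle mice. In WT it had 952, 1371 and 1979 CPM in WT WY mice, against 1047, 2016 and 2990 CPM in WT vehicle mice. The HZ groups were apart, and in WT vehicle animals 76, 29 and 31 lay inside the WY range. Tat had a log2 fold change of -1.15 ± 0.24 in HZ (edgeR adjusted p = 0.000225) and -0.52 ± 0.24 in WT (edgeR adjusted p = 0.0657). It passed in WT as well by DESeq2 (-0.52, adjusted p = 0.0452), with the clock score (-0.52, edgeR adjusted p = 0.0302) and with a term for animals 71 to 78 (-0.65, edgeR adjusted p = 0.0433). It did so too without any 1 of WT WY animals 11 and 25 or WT vehicle animals 29 and 76 (-0.64 to -0.61, edgeR adjusted p of 0.0233 to 0.0429). Hpd and Fah, the dioxygenase and the hydrolase of the same pathway, fell in both genotypes. Fah had 332, 388 and 411 CPM in HZ WY mice, against 440.1, 562 and 587 CPM in HZ vehicle mice, and 382, 420.5 and 452 CPM in WT WY mice, against 500, 533 and 594 CPM in WT vehicle mice. There was no overlap, with -0.51 ± 0.06 in HZ (edgeR adjusted p = 1.26e-07) and -0.39 ± 0.06 in WT (edgeR adjusted p = 8.35e-06). Hpd had 1187, 1298 and 1556 CPM in HZ WY mice, against 1444, 1685 and 1937 CPM in HZ vehicle mice, and 1342, 1422 and 1534 CPM in WT WY mice, against 1612, 1740 and 1837 CPM in WT vehicle mice. WT groups were apart, and 2 HZ WY animals, numbers 14 and 18, reached into the vehicle range, with -0.34 ± 0.07 in HZ (edgeR adjusted p = 0.000186) and -0.29 ± 0.07 in WT (edgeR adjusted p = 0.0011). Hgd, homogentisate dioxygenase between them, did not pass, at -0.13 ± 0.07 in HZ and -0.07 ± 0.07 in WT. It passed in HZ without the 5 libraries that stood apart (-0.22, edgeR adjusted p = 0.0209) and without HZ WY animal 18 or HZ vehicle animal 38 (-0.16, edgeR adjusted p = 0.0422 and 0.0426).

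Afmid, the kynurenine formamidase of tryptophan breakdown, had 66.9, 75.5 and 91.3 CPM in HZ WY mice, against 90.3, 117 and 139.6 CPM in HZ vehicle mice, and 75.3, 89.3 and 98.7 CPM in WT WY mice, against 105, 121 and 125 CPM in WT vehicle mice. The log2 fold change was -0.58 ± 0.08 in HZ (edgeR adjusted p = 1.03e-06) and -0.40 ± 0.08 in WT (edgeR adjusted p = 0.000169). Afmid shares 46.6% of its exon bases with other annotated genes, Gm20708 and Tk1, which its reads cannot be told apart from with certainty. Ddc, the aromatic amino acid decarboxylase that makes dopamine and serotonin, had 54.7, 76.9 and 114 CPM in HZ WY mice, against 36.4, 44.0 and 72.7 CPM in HZ vehicle mice. In WT Ddc had 50.8, 65.8 and 87.6 CPM in WT WY mice, against 29.1, 72.3 and 80.4 CPM in WT vehicle mice, with wide overlap in both genotypes. Its log2 fold change was 0.70 ± 0.21 in HZ (edgeR adjusted p = 0.00734) and 0.11 ± 0.21 in WT (edgeR adjusted p = 0.678). With the clock score as a covariate the HZ value was 0.03 (edgeR adjusted p = 0.882). Qdpr, which renews the tetrahydrobiopterin cofactor, did not pass, at 0.02 ± 0.10 in HZ and -0.01 ± 0.10 in WT, and shares 18.6% of its exon bases with an antisense gene.

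Aass, the enzyme of the main lysine pathway in mitochondria, was the single lysine gene. It had 286, 366 and 410.1 CPM in HZ WY mice, against 391, 452 and 594 CPM in HZ vehicle mice, and 329, 350.1 and 460.1 CPM in WT WY mice, against 457, 499.5 and 571 CPM in WT vehicle mice. The HZ groups and the WT groups each overlapped at the edge, and the log2 fold change was -0.39 ± 0.09 in HZ (edgeR adjusted p = 0.000537) and -0.45 ± 0.09 in WT (edgeR adjusted p = 0.000127).

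Other genes of these pathways, 79 on a list of which 73 were tested, gave 35 lower, 18 higher and 20 that did not pass in HZ, and 34 lower, 14 higher and 25 that did not pass in WT. Their median log2 fold change was -0.22 in HZ and -0.19 in WT. Of all tested genes 26.4% were lower and 29.3% higher in HZ, and 26.7% lower and 27.4% higher in WT. By list, 7 aromatic genes were lower and 0 higher in HZ (6 and 0 in WT), 7 branched-chain genes lower and 4 higher (6 and 2 in WT). There were 7 glycine and serine genes lower and 2 higher (7 and 2 in WT) and 5 lysine genes lower and 0 higher (5 and 0 in WT). The other sulphur genes went both ways, 5 lower and 8 higher in HZ with a median of 0.27, and 6 lower and 6 higher in WT with a median of 0.16. In each genotype 2 proline genes were lower and 2 higher, and of the genes for glutamate, aspartate and asparagine 3 were lower and 2 higher. All genes named in this paragraph passed in both genotypes unless said otherwise. Kynureninase (Kynu) was at -0.77 in HZ and -0.95 in WT on the log2 scale. Among the sulphur genes that fell, cysteine dioxygenase (Cdo1) was at -1.64 in HZ and -1.32 in WT, and Sqrdl, which oxidises sulphide, at -1.12 in HZ and -0.99 in WT. For lysine, Dhtkd1 of the 2-oxoadipate dehydrogenase was at -1.09 in HZ and -1.10 in WT, and the hydroxylysine kinase Hykk at -0.92 in HZ and -1.12 in WT. Gls2, the liver glutaminase, was at -1.35 in HZ and -1.49 in WT, and glutamate dehydrogenase (Glud1) at -0.42 in HZ and -0.55 in WT. The glyoxylate reductase Grhpr was higher under WY, at 1.30 in HZ and 1.12 in WT. In the branched-chain list Acadsb was at -0.76 in HZ and -0.69 in WT, and in the proline list Hoga1 was at -0.47 in HZ and -0.34 in WT. Gnpda1 at -1.17 in HZ and -1.19 in WT acts on amino sugars and not on glycine or serine.

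HZ and WT livers were then compared within each treatment. Under WY 0 of 41 genes passed (edgeR, 7 at an unadjusted p below 0.05), where 3.16% of all tested genes did (1.42% higher and 1.74% lower), and DESeq2 called 2. Of all 12607 tested genes, 3033 had an unadjusted edgeR p below 0.05 under WY. Under vehicle 0 of 41 passed (edgeR, 3 at an unadjusted p below 0.05, 0 by DESeq2), where 2.07% of all genes did (0.301% higher and 1.77% lower). Here 2256 of the 12607 tested genes had an unadjusted edgeR p below 0.05. None of the 41 genes separated all HZ from all WT animals, where under WY 0.452% of all genes were higher and 0.896% lower without overlap, and under vehicle 0.0397% higher and 0.23% lower. The 3 smallest p-values under WY belonged to Prodh2, Bckdha and Gnmt. Prodh2 had 138, 158 and 195 CPM in HZ WY mice, against 167, 185 and 223 CPM in WT WY mice, a log2 fold change of -0.23 ± 0.08 (edgeR adjusted p = 0.0911). DESeq2 called it at -0.25 (adjusted p = 0.041), and edgeR called it without HZ WY animal 2 (-0.28, adjusted p = 0.0393). Bckdha had 144, 164 and 179 CPM in HZ WY mice, against 169.6, 186 and 202 CPM in WT WY mice, at -0.18 ± 0.07 (edgeR adjusted p = 0.0946), and DESeq2 called it at -0.20 (adjusted p = 0.0365). Gnmt was at -0.26 ± 0.10 (edgeR adjusted p = 0.133).

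Under vehicle the smallest p-values belonged to Hibch at -0.13 ± 0.05, Sdsl at -0.30 ± 0.13 and Prodh at 0.31 ± 0.14 (edgeR adjusted p = 0.187, 0.221 and 0.221). Prodh had 94.4, 172 and 202 CPM in HZ vehicle mice, against 108, 112 and 164 CPM in WT vehicle mice, and the animals of the groups were mixed. Got1 had the highest estimate of HZ over WT in both treatments, 0.45 ± 0.23 under WY with a 95% interval of -0.03 to 0.93, and 0.42 ± 0.23 under vehicle with an interval of -0.05 to 0.90. Over all 41 genes the intervals lay within -0.71 and 0.93 under WY and within -0.82 and 0.91 under vehicle. The missing calls therefore do not show equal levels. Of the other pathway genes, Mcee fell in HZ under WY (-0.27, edgeR adjusted p = 0.0353) and Mtap fell in HZ under vehicle (-0.65, edgeR adjusted p = 0.0212).

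**Figure D5:**
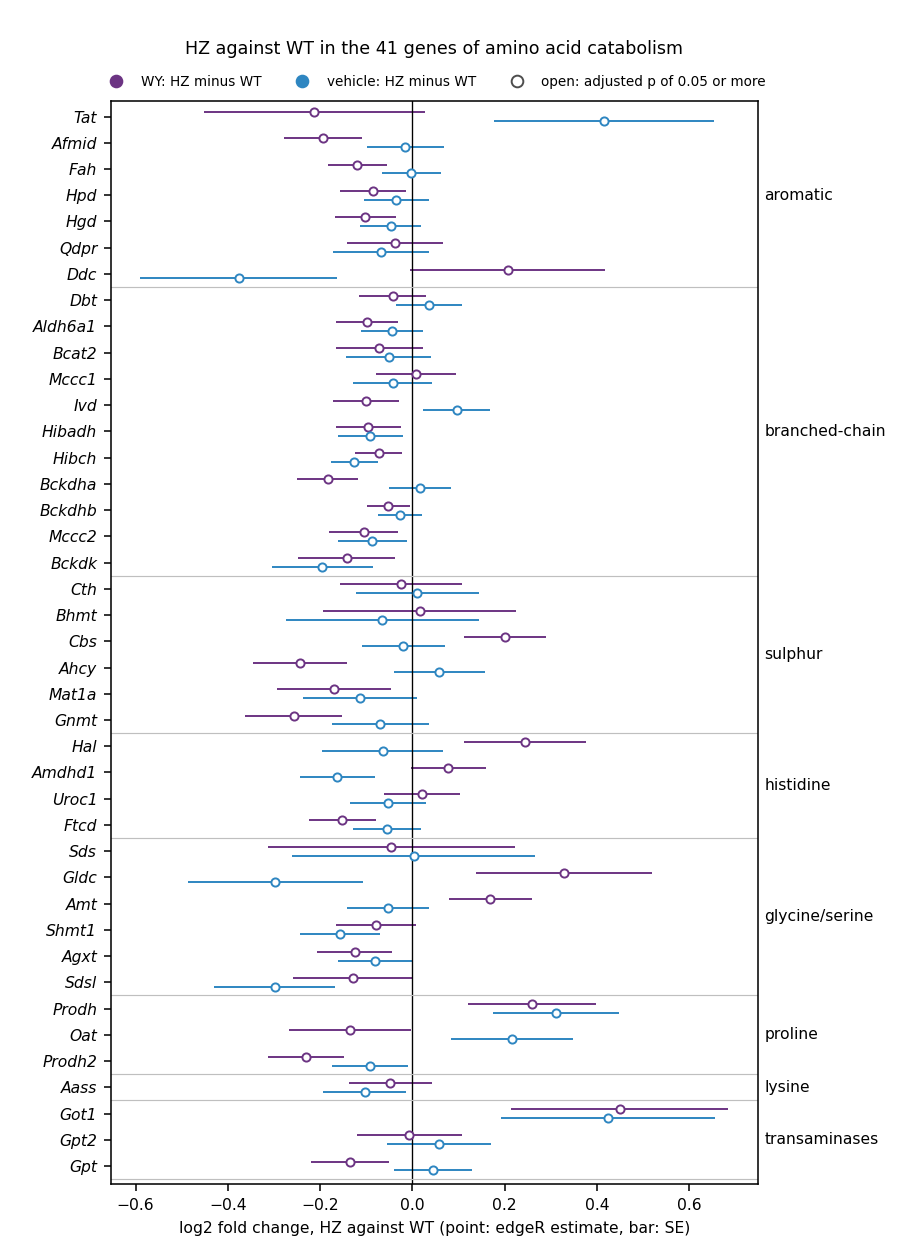
Log2 fold change of HZ against WT for each of the 41 genes (x axis; point, edgeR estimate; bar, SE; 7 animals a group), under WY above and under vehicle below in each row. All points are open, since no gene passed in either treatment, and the estimates lie between -0.38 for Ddc and 0.45 for Got1.

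The interaction, the WY effect in HZ less the WY effect in WT, asked whether the genotypes differ in their response. It passed for 0 of 41 genes by edgeR (4 at an unadjusted p below 0.05) and 0 by DESeq2, where 0% of all tested genes passed by edgeR. Of all 12607 tested genes, 1182 had an unadjusted edgeR p below 0.05. The 3 smallest p-values of the 41 genes were those of Gldc at 0.63 ± 0.27, Bckdha at -0.20 ± 0.09 and Ahcy at -0.30 ± 0.14 (edgeR adjusted p = 0.493, 0.516 and 0.516). For Tat, which passed only in HZ, the interaction was -0.63 ± 0.34 with a 95% interval of -1.33 to 0.07, and for Ddc it was 0.58 ± 0.30 with an interval of -0.04 to 1.20. A gene that passed in 1 genotype is therefore not shown to respond differently in the other.

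Set per kilobase of exon so that genes can be compared, levels in HZ WY mice were highest for Gnmt (966 ± 120 CPM per kb), Mat1a (806 ± 149), Hpd (631 ± 68.6), Tat (503 ± 178) and Oat (353 ± 88.1; SD, n = 7). In WT vehicle mice the same genes led, with Gnmt at 1370 ± 133 CPM per kb, Mat1a at 1090 ± 152, Tat at 839 ± 309, Hpd at 817 ± 42.4 and Oat at 456 ± 67.8. Tat and Hpd differed by less than the SD of Tat in both groups, though by more than the SD of Hpd in HZ WY mice. At the low end in WT vehicle mice were Bckdk at 3.12 ± 0.234 CPM per kb, Mccc1 at 4.33 ± 0.317 and Bcat2 at 5.75 ± 0.736. In HZ WY mice the lowest were Mccc1 at 3.22 ± 0.293 CPM per kb, Bcat2 at 4.01 ± 0.636 and Bckdk at 4.27 ± 0.815. The order at the low end depends on that length, which was 10.952 kb for Mccc1, 3.9 for Bcat2 and 3.695 for Bckdk. Undivided, their means in HZ WY mice were 35.26, 15.65 and 15.79 CPM. Within groups the coefficient of variation of the 41 genes had a median of 12.4% in HZ WY, 10.9% in WT WY, 13.5% in HZ vehicle and 8.06% in WT vehicle mice, and reached 47.7% in WT vehicle mice.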

How the data were processed

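Liver RNA-seq of 28 mice was used as raw counts of reads per gene symbol, which the authors deposited without normalization in separate tables of 14 vehicle and 14 WY libraries. Per the submitters' processing notes, STAR 2.5.0a, HTSeq 0.6.1p1, DESeq2 1.18.1 and mm10 were used. No annotation or strand setting is given in the sources used here. Where genes overlap, on either strand, their reads therefore cannot be separated with certainty. Reads placed in several positions (35.8 to 42.6% of a library's reads), on no gene (6.35 to 9.08%) or on several genes stood in 5 summary rows, which were left out, as were 25 vehicle and 27 WY rows whose gene names had become dates.

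Counts of the 23393 shared symbols were filtered (filterByExpr, 12607 left), scaled by TMM and tested with edgeR 4.0.16 (robust quasi-likelihood, 28 libraries, 24 residual degrees of freedom, R 4.3.3) in 5 contrasts, with Benjamini-Hochberg adjustment over all tested genes and a threshold of 0.05. The SE of a log2 fold change is its size divided by the square root of the F statistic. Replicates are separate animals by number, and p-values measure the spread between them. The calls were tested on simulated data with 200 changed genes a contrast, far fewer than were called for WY. These were drawn at random from all tested genes, so the shares recovered are not those of the 41 genes. Of changes of 0.5 on the log2 scale, 75.3% were recovered for WY in HZ and 61% for WY in WT. For HZ against WT it was 69.7% under WY and 56.1% under vehicle, and for the interaction 35.3%. The 41 genes, the pathway and marker lists and the tests were chosen with earlier results of these data known. In full are given the genes with the smallest p in each amino acid group (up to 4 a contrast) and the 3 with the smallest p in each genotype contrast and the interaction. Ddc, outside this rule, was added after its values were seen. Of the other pathway genes, up to 2 per group with the smallest p in WT are named, apart from some that are not reported here. Positions and exon lengths are from GENCODE M21, and copies were sought with blastn at 97% identity or more over at least 500 bases. Alternatives were DESeq2 1.42.0, its size factors, no filter, a term for vehicle animals 71 to 78, the clock score as covariate, only the groups compared, each library left out, and, chosen after seeing the data, leaving out the 5 HZ libraries that stood apart.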

Additional observations from a re-analysis of the deposited data

Results flagged for a closer look

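In 8 of 164 gene and group combinations the highest or the lowest of the 7 animals stood further from the rest than Dixon's 95% limit allows, and chance flags about 1 in 20. Under WY these were Aldh6a1 at 626 CPM in HZ animal 18 (next 526), Ivd at 94 CPM in WT animal 10 (next 109) and Amt at 50.3 CPM in WT animal 6 (next 42.5). The other 5 were in HZ vehicle mice. Animal 71 was highest for Gldc at 348 CPM (next 195) and for Uroc1 at 545 CPM (next 418), and animal 34 was lowest for Fah at 440 CPM (next 527). Animal 38, among the libraries that stood apart, was highest for Bckdhb at 177 CPM (next 153) and lowest for Mccc2 at 52.2 CPM (next 68.6). Without HZ vehicle animal 71 the WY effect on Gldc in HZ was 0.04 in place of -0.18 on the log2 scale, not past the threshold either way.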

How the results depend on the processing

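The count of genes called for WY was 28 to 32 in HZ and 28 to 30 in WT over the other settings, and 29 to 33 in HZ and 28 to 30 in WT with each library left out. Over all genes, WY calls ran from 5132 to 7130 in HZ and from 6458 to 7166 in WT, against 7024 and 6815. The 5132 calls in HZ came with the clock score as a covariate. In WT 28 of 29 called genes passed in every setting and in HZ 25 of 32, with no called gene changing sign. The share of all called genes that passed in every setting was not counted. Gnmt was lost in WT, and Ddc, Bckdha, Mccc2, Hibch, Mat1a, Sdsl and Gpt each in at least 1 setting in HZ. HZ against WT under WY gave 0 genes except 2 by DESeq2 and 0 to 1 with each library left out, the 1 being Prodh2 without HZ WY animal 2. The other genotype contrast and the interaction gave 0 throughout. Over all genes, calls of HZ against WT ran from 48 to 1122 under WY and from 0 to 650 under vehicle, against 398 and 261.

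Values near 0 that did not pass changed sign. In WT, Agxt was 0.0192 with the term for animals 71 to 78 and, with each library left out, -0.0550 to 0.00258, Qdpr -0.0694 to 0.0480, Ddc -0.0106 to 0.181, Bckdha -0.0383 to 0.0214 and Gpt -0.0666 to 0.0125. In HZ, Qdpr was -0.0149 with the clock score, Shmt1 0.00571 with the term for animals 71 to 78 and 0.00036 with only the groups compared, and the ranges were Qdpr -0.0424 to 0.0610, Gldc -0.261 to 0.0423 and Shmt1 -0.0728 to 0.0335. The cause was not tested. No paired analysis was possible because no animal number occurs in more than 1 group. Treatment coincides with deposited table and animal number series, and no setting separates them. Bulk counts give no cell types, and with 7 animals a group small genotype differences can be missed.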

Other observations

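Tat, Sds and Got1 varied more between WT vehicle animals than most of the 41 genes. Got1 was at 96.8 CPM in animal 76 and 148.6 in animal 29, and at 240.1, 244.7, 260, 314.5 and 353.4 CPM in animals 78, 74, 31, 32 and 37. Tat in the same order of animals was at 1047, 1114, 2232, 2016, 1964, 2759 and 2990 CPM, and Sds at 86.8, 134.6, 136.6, 141.5, 210, 305.7 and 320.2 CPM. These are values of single animals, and no test was made of them.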
